A study of Mus musculus with 8 samples.

Results

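The sterol regulatory element binding proteins (SREBPs) and the carbohydrate response element binding protein (ChREBP) are the transcription factors that match lipid synthesis in the liver to food intake. Their genes, those of the proteins that hold or release the SREBPs, and those of their E-box-binding relatives were examined here. They are Srebf1, Srebf2, Scap, Insig1, Insig2, Mlxipl, Mlx, Usf1 and Usf2, chosen by name for their place in the pathway, with earlier results of these arrays known, as 9 genes of the 19938 measured. Each gene was read from the probe set that the platform annotation gives to its symbol, and from the brightest one where there were several. Only Srebf2 had a second probe set, which the annotation gives to 4 genes together.

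The livers came from 8 adult male mice. Of these, 4 are labelled RKO, with the genotype given as Rictor floxed, and the series title names Albumin-Cre and Rictor LoxP/LoxP, a deletion targeted to the liver. The other 4 are labelled wild type (WT), and the labels do not state whether they carry floxed alleles or Cre. All mice were fasted for 16 h and then had free access to food for 3 h. The albumin promoter drives Cre in hepatocytes, so liver cells in which it has not been active keep Rictor, a subunit that defines mTOR complex 2. Each liver was measured on 1 Affymetrix Mouse Gene 1.0 ST array, whose probes lie along the whole transcript, and expression is given as log2 values from RMA (robust multi-array average). The comparison asks how these transcripts depend on hepatic mTOR complex 2 after refeeding.

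SREBPs are made as precursors in the membrane of the endoplasmic reticulum, bound to the escort protein Scap. When sterols are plentiful, the anchor proteins Insig1 and Insig2 keep Scap in place. When sterols fall, Scap carries the precursor to the Golgi apparatus, where proteases release the active factor. SREBP-1c, a product of Srebf1, is induced by insulin in the liver and drives fatty acid synthesis, whereas SREBP-2, the product of Srebf2, drives cholesterol synthesis and uptake. In mouse liver a form of the Insig2 transcript is lowered by insulin, and Insig1 is itself an SREBP target. ChREBP, the product of Mlxipl, responds to glucose metabolites and binds DNA as a heterodimer with Mlx. USF1 and USF2 bind the E-box CACGTG as homodimers or heterodimers.

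The promoters of these genes are shown because several of them hold the E-box CACGTG that USF dimers recognise or, in Srebf2, letters of a sterol regulatory element. No search was made for sites of ChREBP-Mlx. Sequences are from RefSeq (build GRCm38.p6) and cover the 250 bases before a start site, read 5′ to 3′ on the gene's strand. Of the 9 genes, 8 matched the table, with 15 windows in all, since Srebf1, Scap, Insig2, Mlxipl and Usf1 have several annotated starts. CACGTG, which reads the same on both strands, was found in 1 window each of Scap, Insig1, Mlxipl and Mlx, thus in 4 of 15 windows (those of Scap overlap each other), against 6.02% of all 32851 windows of this length. The letters ATCACNCCA, searched on both strands as the core of a sterol regulatory element, were found only in the Srebf2 window among the 15, against 0.712% of all windows. No window held both. A match is a description of letters and shows no binding. Capitals mark CACGTG or ATCACNCCA. The windows are Mlx (chr11:101087040-101087289, plus strand), Mlxipl at the more upstream of its 2 starts (chr5:135089640-135089889, plus strand), Insig1 (chr5:28071162-28071411, plus strand), Srebf2 (chr15:82147019-82147268, plus strand) and Insig2 at the most upstream of its 3 starts (chr1:121332590-121332839, minus strand), which held neither pattern.
Mlx: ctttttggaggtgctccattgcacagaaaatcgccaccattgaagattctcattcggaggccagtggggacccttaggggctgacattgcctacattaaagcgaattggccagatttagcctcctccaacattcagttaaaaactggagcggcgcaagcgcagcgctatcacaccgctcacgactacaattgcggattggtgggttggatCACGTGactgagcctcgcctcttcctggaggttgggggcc
Mlxipl: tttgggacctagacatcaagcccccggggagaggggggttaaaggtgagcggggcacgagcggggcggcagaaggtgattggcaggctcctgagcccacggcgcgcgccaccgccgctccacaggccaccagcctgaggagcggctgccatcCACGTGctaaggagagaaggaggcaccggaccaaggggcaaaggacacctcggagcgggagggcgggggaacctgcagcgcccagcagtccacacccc
Insig1: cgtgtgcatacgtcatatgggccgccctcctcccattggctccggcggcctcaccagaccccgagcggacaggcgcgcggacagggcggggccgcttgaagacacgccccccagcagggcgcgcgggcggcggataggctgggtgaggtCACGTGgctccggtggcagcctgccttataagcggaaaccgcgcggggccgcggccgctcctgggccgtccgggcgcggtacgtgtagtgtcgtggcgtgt
Srebf2: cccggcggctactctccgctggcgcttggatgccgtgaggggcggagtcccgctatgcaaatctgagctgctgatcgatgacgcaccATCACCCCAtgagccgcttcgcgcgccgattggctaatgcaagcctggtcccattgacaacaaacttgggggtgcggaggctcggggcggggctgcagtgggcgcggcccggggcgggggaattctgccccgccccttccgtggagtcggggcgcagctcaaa
Insig2: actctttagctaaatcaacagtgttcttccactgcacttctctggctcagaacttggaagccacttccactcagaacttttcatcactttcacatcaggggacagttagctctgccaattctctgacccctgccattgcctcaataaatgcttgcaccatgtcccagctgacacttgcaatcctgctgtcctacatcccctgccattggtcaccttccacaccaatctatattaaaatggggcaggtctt

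By the same build, the genes span these positions: Srebf1 at chr11:60199084-60224186, Srebf2 at chr15:82147269-82205379, Scap at chr9:110333288-110384949, Insig1 at chr5:28071412-28078662, Insig2 at chr1:121304353-121332662, Mlxipl at chr5:135089890-135139768, Mlx at chr11:101086707-101092207, Usf1 at chr1:171411307-171418954 and Usf2 at chr7:30945248-30956951. The Mlx window printed above, with its CACGTG, lies within the Mlx span, and the printed Insig2 window lies partly within the Insig2 span. The exons covered by each probe set were not looked up. Each gene was read as a single value, so SREBP-1a and SREBP-1c, the alternative forms of ChREBP and the alternative first exons of Insig2 were not told apart. In bulk liver, fewer cells of a type and less RNA per cell cannot be told apart either.

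Array medians lay between 6.90 and 7.03. Rictor read 9.15, 9.51, 9.68 and 9.47 on RKO-labelled arrays 1 to 4, against 9.47, 9.28, 9.23 and 9.64 on WT arrays 1 to 4. It was thus not lower on the RKO-labelled arrays (log2 difference 0.05, SE 0.13; limma adjusted p = 0.936). The exons this probe set covers were not examined, so it does not check the labels, and every direction below rests on them. The arrays numbered 1 stood apart from their groups. On the first principal component RKO-labelled array 1 lay at -13.7 and the other 3 RKO-labelled arrays between 16.0 and 18.4, while WT array 1 lay at -1.48 and the other 3 WT arrays between -13.6 and -11.4. The 8 measured hepatocyte markers averaged between 13.84 and 13.86 on the RKO-labelled arrays and between 13.80 and 13.88 on the WT arrays.

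None of the 9 genes passed the correction over all probe sets, and neither did any other gene (0% of 19938 genes by limma with Benjamini-Hochberg adjustment). Insig2, the sterol-sensing anchor, had the largest difference of the 9, toward higher values on the RKO-labelled arrays. Mlx and Mlxipl, the partners of the ChREBP heterodimer, had the largest differences toward lower values. These 3 genes, 1 higher and 2 lower, had an unadjusted limma p under 0.05, which is 3 of 9 against 10.3% of all genes (2062). The median difference of the 9 genes was -0.02, the same as the median over all genes. Differences are log2 values, RKO-labelled minus WT, from 4 arrays in each group, with moderated standard errors. In 0 of the 9 genes did the groups separate completely, against 4.42% of all genes (1.81% with RKO-labelled arrays above and 2.61% with them below).

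**Figure D1:**
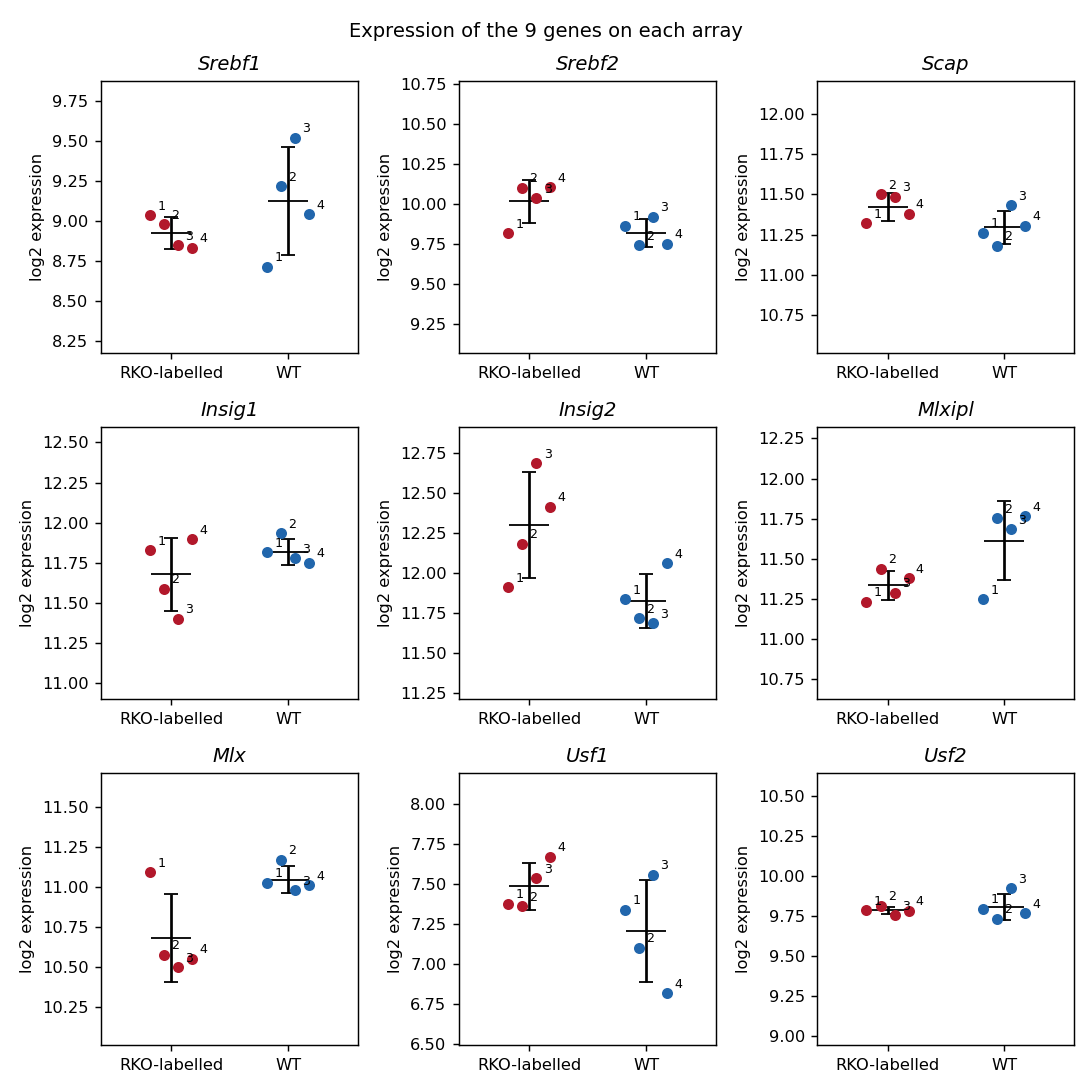
RMA expression (log2, vertical axes of equal span) of the 9 genes on 4 RKO-labelled arrays (red) and 4 WT arrays (blue), with array numbers beside the points; horizontal bars are group means and whiskers the SD. RKO-labelled arrays 2 to 4 lie above all WT arrays for Insig2 and below them for Mlx, while RKO-labelled array 1 lies with the WT arrays.

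Of the anchors and the escort, Insig2 read 11.91, 12.18, 12.68 and 12.41 on the RKO-labelled arrays, against 11.84, 11.72, 11.68 and 12.06 on the WT arrays. RKO-labelled arrays 2, 3 and 4 were above every WT array, and RKO-labelled array 1 fell between WT array 1 and WT array 4. The mean was 12.30 ± 0.33 in RKO-labelled livers and 11.82 ± 0.17 in WT livers (SD, n = 4 each). The difference of 0.47 (SE 0.15) corresponds to 1.39-fold and has a 95% interval from 0.16 to 0.79 (limma adjusted p = 0.257). The exact two-sided permutation test gave p = 0.0571, where 4 arrays against 4 allow no p below 0.0286. Insig2 passed with array weights (a difference of 0.62 with limma adjusted p = 0.0239), without RKO-labelled array 1 (0.60; limma adjusted p = 0.020) and with the arrays numbered 1 of both groups omitted (0.61; limma adjusted p = 0.0121). Those fits called 3.38%, 4.20% and 7.24% of all genes, and 1.27%, 1.06% and 2.28% as higher. Over its 19 alternatives the adjusted p reached 0.639, without RKO-labelled array 3.

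Insig1, the anchor whose gene SREBPs induce, read 11.83, 11.59, 11.40 and 11.90 on the RKO-labelled arrays, against 11.81, 11.93, 11.78 and 11.75 on the WT arrays. RKO-labelled arrays 2 and 3 were the lowest of all, whereas RKO-labelled arrays 1 and 4 lay within the WT range. The difference was -0.14 (SE 0.11; limma adjusted p = 0.678), with a 95% interval from -0.38 to 0.09. It was -0.05 without RKO-labelled array 3 and -0.21 without RKO-labelled array 4. Scap, the escort protein of the SREBP precursors, read 11.32, 11.50, 11.49 and 11.38 on the RKO-labelled arrays, against 11.26, 11.18, 11.43 and 11.31 on the WT arrays. The groups overlapped, and the difference was 0.13 (SE 0.08; limma adjusted p = 0.620). Neither gene passed in any of its 19 alternatives.

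Of the SREBP genes, Srebf1 read 9.04, 8.98, 8.85 and 8.83 on the RKO-labelled arrays, against 8.71, 9.22, 9.52 and 9.04 on the WT arrays. The RKO-labelled arrays lay close together (SD 0.10, n = 4) inside the wide WT range (SD 0.34, n = 4), with WT array 1 the lowest of all 8. The difference was -0.20 (SE 0.15) with a 95% interval from -0.52 to 0.12 (limma adjusted p = 0.670). It was -0.34 without WT array 1 and -0.07 without WT array 3. With both arrays numbered 1 left out it was -0.37 (limma adjusted p = 0.0953), the lowest adjusted p of its 19 alternatives.

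Srebf2 differed in the other direction. It read 9.82, 10.10, 10.04 and 10.10 on the RKO-labelled arrays, against 9.86, 9.74, 9.92 and 9.75 on the WT arrays. RKO-labelled arrays 2 to 4 were above every WT array, and RKO-labelled array 1 was in the WT range. The difference was 0.20 (SE 0.10; limma adjusted p = 0.484), with a 95% interval from -0.01 to 0.41. The second probe set annotated with Srebf2 is given first to Ube3a, a ubiquitin ligase gene, and differed by 0.48 (SE 0.13; limma adjusted p = 0.211). It names 4 genes, so this value belongs to none of them with certainty, and the mean of both probe sets gave 0.34. Srebf2 passed in none of its 19 alternatives.

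The transcripts of both subunits of the ChREBP heterodimer were lower by mean, and protein was not measured. Mlxipl, which encodes ChREBP, read 11.23, 11.44, 11.29 and 11.38 on the RKO-labelled arrays, against 11.25, 11.75, 11.68 and 11.77 on the WT arrays. WT arrays 2 to 4 were above every RKO-labelled array, while WT array 1 was among the RKO-labelled arrays. The mean was 11.33 ± 0.09 in RKO-labelled livers and 11.61 ± 0.25 in WT livers (SD, n = 4 each). The difference of -0.28 (SE 0.11) has a 95% interval from -0.53 to -0.03 (limma adjusted p = 0.395). It passed without WT array 1 (-0.40; limma adjusted p = 0.0453), a fit that called 0.466% of all genes and 0.135% as lower, and with both arrays numbered 1 omitted (-0.37; limma adjusted p = 0.0132). With array weights it did not pass (-0.32; limma adjusted p = 0.0991), and over the 19 alternatives the adjusted p reached 0.748.

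Mlx, the dimer partner of ChREBP, read 11.09, 10.58, 10.50 and 10.55 on the RKO-labelled arrays, against 11.03, 11.17, 10.98 and 11.01 on the WT arrays. Here the array that stood apart was RKO-labelled array 1, which lay among the WT arrays, while WT array 1 stayed with its own group. The mean was 10.68 ± 0.28 in RKO-labelled livers and 11.05 ± 0.08 in WT livers (SD, n = 4 each). The difference of -0.36 (SE 0.13), or 0.777-fold, has a 95% interval from -0.64 to -0.09 (limma adjusted p = 0.307; exact permutation p = 0.114). Mlx passed in the fit with array weights (-0.48; limma adjusted p = 0.0273), in that without RKO-labelled array 1 (-0.50; limma adjusted p = 0.0085) and in that lacking both arrays numbered 1 (-0.51; limma adjusted p = 0.0045). As lower, those fits called 2.11%, 3.14% and 4.96% of all genes. The adjusted p reached 0.719 without RKO-labelled array 3.

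Array weights are estimated from the scatter of each array about its labelled group. The lowest was 0.471, on RKO-labelled array 1. WT array 1 had 0.821, near WT array 3 at 0.825 and above RKO-labelled array 2 at 0.682. The arrays numbered 1 were left out with their position known. These fits are therefore no separate test of Insig2, Mlxipl or Mlx, or of the other genes reported from them.

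**Figure D2:**
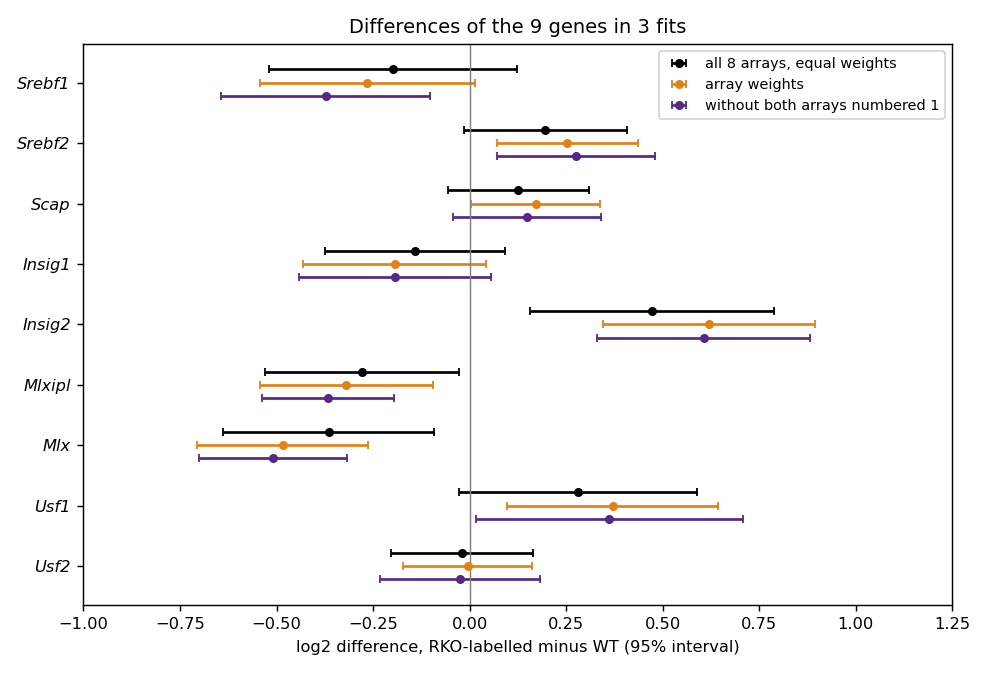
Log2 differences (horizontal axis, RKO-labelled minus WT) of the 9 genes with 95% intervals from limma, for all 8 arrays at equal weights (black), with array weights (orange) and without both arrays numbered 1 (purple). Insig2 at 0.47, 0.62 and 0.61 lies to the right of 0 in the 3 fits, and Mlx at -0.36, -0.48 and -0.51 to the left.

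The upstream stimulatory factors did not move as a pair by mean. Usf1 read 7.38, 7.36, 7.54 and 7.67 on the RKO-labelled arrays, against 7.34, 7.10, 7.56 and 6.82 on the WT arrays. The difference was 0.28 (SE 0.14; limma adjusted p = 0.493), and it was 0.15 without WT array 4, the lowest reading, and 0.40 without WT array 3. Usf2 read 9.79, 9.81, 9.76 and 9.78 on the RKO-labelled arrays, against 9.80, 9.73, 9.92 and 9.77 on the WT arrays. Its difference of -0.02 (SE 0.08) has a 95% interval from -0.20 to 0.16, the smallest difference of the 9 genes, and its sign turned without WT array 3 (0.02). Usf1 and Usf2 passed in none of their alternatives.

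The arrays numbered 1 are also those that read against their group for Igfbp1, a gene that insulin represses in liver. Igfbp1 read 7.76, 10.10, 10.10 and 9.65 on the RKO-labelled arrays, against 10.04, 7.40, 7.30 and 7.29 on the WT arrays. Pck1 and G6pc, gluconeogenic genes that insulin also represses, and Irs2 differed by 0.55, 0.56 and 0.50 in the same direction, with limma adjusted p = 0.192, 0.242 and 0.472. Igfbp1 differed by 1.39 over all 8 arrays (SE 0.62; limma adjusted p = 0.435). It was 2.62 (limma adjusted p = 6.43e-07) and Irs2 0.94 (limma adjusted p = 0.000148) once both arrays numbered 1 were omitted. Those arrays read against their groups for both genes, so these p-values are no separate test. The members did not share 1 pattern across these arrays. On WT array 1, where Igfbp1 read 10.04, Srebf1 and Mlxipl had the lowest WT readings (8.71 and 11.25), whereas Insig2 (11.84) and Mlx (11.03) lay within the range of the other WT arrays. On RKO-labelled array 1, where Igfbp1 read 7.76, Srebf1 had the highest reading of its group (9.04) and Mlx too (11.09), Insig2 had the lowest (11.91), and Mlxipl also had the lowest (11.23). Scd1, the stearoyl-CoA desaturase induced by SREBP-1c, read 14.02 on RKO-labelled array 1 and between 12.79 and 12.97 on the other 3 of that group. On WT array 1 it read 12.66, with the other 3 WT arrays between 13.63 and 14.01. The part of feeding state in these differences was not tested.

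**Figure D3:**
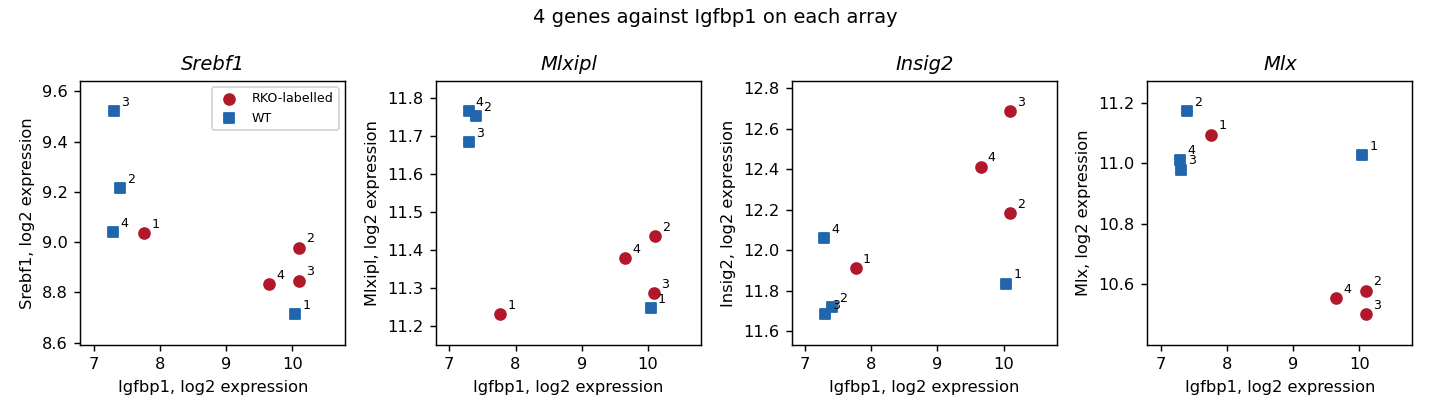
Log2 expression of Srebf1, Mlxipl, Insig2 and Mlx (vertical axes) against Igfbp1 (horizontal axis) on 4 RKO-labelled arrays (red circles) and 4 WT arrays (blue squares), numbered by array. WT array 1 at an Igfbp1 value of 10.04 lies at the bottom of the Srebf1 plot, at 8.71, but with the other WT arrays in the Mlx plot, at 11.03.

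Relations between genes across the 8 arrays were computed for the 36 pairs of the 9 genes and for each gene with Igfbp1, 45 in all, and 0 passed after Benjamini-Hochberg adjustment by Pearson's r or by Spearman's rho, with 9 at an unadjusted exact p under 0.05 by r. The values of Mlx and of Igfbp1 fell into separate clusters, with an empty gap of more than 50% of their range, a limit set after seeing the values, so no r is given for pairs with them. Of the remaining 28 pairs, 4 had an unadjusted exact permutation p under 0.05 by r. Srebf2 and Scap had r = 0.816 (exact permutation p = 0.0176, adjusted 0.154) and rho = 0.786 (exact permutation p = 0.0279, adjusted 0.412). Without the 2 arrays farthest from the Srebf2 median r was 0.871, and for deviations from the group means it was 0.691. Srebf2 and Usf1 had r = 0.754 (exact permutation p = 0.0235, adjusted 0.154) and rho = 0.762 (exact permutation p = 0.0368, adjusted 0.412), with r = 0.821 without the farthest arrays and 0.619 within groups. Scap and Insig1 ran against each other, with r = -0.760 (exact permutation p = 0.0240, adjusted 0.154) and rho = -0.690 (exact permutation p = 0.0694, adjusted 0.425), and r = -0.652 without the farthest arrays and -0.695 within groups. Srebf1 and Mlxipl had r = 0.700 (exact permutation p = 0.0456, adjusted 0.240) and rho = 0.643 (exact permutation p = 0.0962, adjusted 0.425), with r = 0.661 and 0.621 in the same checks. All values come from the same 8 arrays and share their normalisation.

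The genes whose pattern over the 8 arrays was most like that of a member were found by Pearson's r among 9620 genes with a mean above the median of all genes, predicted genes left out, as a description. For Srebf1 these were Homer2 (r = 0.970), Kifc3 (0.964) and Kdm4b (0.963). For Insig1 they were Sdc3 (r = 0.964), Cyp7b1, an oxysterol 7-alpha-hydroxylase gene (0.933), and Rasgrp1 (0.924). For Insig2 they were Dhx36 (r = 0.975), Rnf149 (0.974) and Anapc4 (0.969), and for Mlxipl Nfix (r = 0.953), Npff (0.950) and Fmo5 (0.948). The gene ranked 10 still had r = 0.935, 0.902, 0.954 and 0.927 for these 4 members in the same order, and none of the 4 was among the top 3 of another.

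Around the 9 genes, the list of proteins that process or degrade the SREBPs had 11 of 26 measured genes higher and 15 lower by mean, with a median of -0.02, and 0 passed in either direction. In this list 1 higher and 1 lower gene had an unadjusted limma p under 0.05, against 3.82% and 6.53% of all genes. With 1 array left out the list median lay between -0.06 and 0.01, so that its sign turned. Its smallest p-values belonged to Sar1b (-0.28, SE 0.10; limma adjusted p = 0.305) and Sec23b (-0.24, SE 0.11; limma adjusted p = 0.472), both of the COPII coat of vesicles that leave the endoplasmic reticulum, and to Erlin2, a protein of the degradation machinery that binds Insigs (0.20, SE 0.09; limma adjusted p = 0.440). Sec23b was -0.40 with both arrays numbered 1 omitted (limma adjusted p = 0.0114), where 1 gene of the list passed as higher and 2 as lower, against 2.28% and 4.96% of all genes. Erlin2 read 9.69, 9.69, 9.87 and 9.66 on the RKO-labelled arrays, against 9.54, 9.42, 9.63 and 9.51 on the WT arrays, so that its groups did not overlap. Of the 17 measured transcriptional partners of SREBP-1, 4 were higher and 13 lower by mean, with a median of -0.05. Of these genes 0 passed, and 0 had an unadjusted limma p under 0.05. The median was -0.14 with both arrays numbered 1 omitted, and with 1 array left out it lay between -0.09 and -0.04. The nuclear receptor gene Hnf4a (-0.13, SE 0.06; limma adjusted p = 0.463), the NF-Y subunit gene Nfya (-0.20, SE 0.10; limma adjusted p = 0.477) and the acetyltransferase gene Ep300 (-0.16, SE 0.10; limma adjusted p = 0.578) had its smallest p-values, and Ep300 was -0.09 without WT array 4. The groups did not overlap for Nfya, whereas they overlapped for Hnf4a and Ep300. Over all genes, 8586 were higher and 11352 lower by mean.

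The relatives of Mlx that share E-box binding had a median of -0.12, beside -0.02 over all genes. Without WT array 3 the list median was -0.05. Of the 15 genes 6 were higher and 9 lower by mean, 5 of the lower ones had an unadjusted limma p under 0.05, against 6.53% of all genes in that direction, and 0 passed. With 1 array left out this count lay between 3 and 5. Mlxip, which encodes MondoA, the paralog of ChREBP, read 8.64, 8.68, 8.46 and 8.64 on the RKO-labelled arrays, against 8.86, 8.88, 9.03 and 8.99 on the WT arrays. Its groups did not overlap, and the difference was -0.34 (SE 0.09; limma adjusted p = 0.206). Mxd1, a repressor that dimerises with Max, read 8.66, 8.58, 8.28 and 8.43 on the RKO-labelled arrays, against 8.74, 8.82, 8.77 and 8.84 on the WT arrays. Its groups did not overlap either (-0.30, SE 0.10; limma adjusted p = 0.279). Usf3, a further USF family gene, differed by -0.33 (SE 0.11; limma adjusted p = 0.307) with overlapping groups. Under array weights 2 of the 15, Mlxip (limma adjusted p = 0.0439) and Mxd1 (limma adjusted p = 0.0393), passed as lower, against 2.11% of all genes. Without RKO-labelled array 1 a single gene of the list did, against 3.14%. With both arrays numbered 1 omitted, 4 of the 15 passed as lower, against 4.96% of all genes, among them Mlxip (limma adjusted p = 0.045), Mxd1 (limma adjusted p = 0.0448) and Usf3 (limma adjusted p = 0.0105).

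The target genes were described in the same way. Of 22 measured ChREBP targets 17 were higher and 5 lower by mean, with a median of 0.24, while Mlxipl and Mlx were lower. In this list 5 genes, all higher, had an unadjusted limma p under 0.05, against 3.82% of all genes in that direction, and 0 passed. With 1 array left out, 2 to 9 were higher at that p. The largest difference was that of Rgs16 (1.27, SE 0.70, limma adjusted p = 0.531). It read 7.91, 10.12, 10.94 and 10.42 on the RKO-labelled arrays, against 10.72, 8.10, 7.89 and 7.59 on the WT arrays. Both arrays numbered 1 thus read against their groups for Rgs16, as for Igfbp1. Khk, the ketohexokinase that phosphorylates fructose, lay between 10.83 and 11.10 on the RKO-labelled arrays, against 10.38 to 10.78 on the WT arrays. Its groups did not overlap (0.39, SE 0.10; limma adjusted p = 0.192). G6pc, which is also repressed by insulin, differed by 0.56 (SE 0.17; limma adjusted p = 0.242), and Fasn, the fatty acid synthase gene that is also an SREBP-1 target, by 0.35 (SE 0.14; limma adjusted p = 0.385). The list median was 0.14 without RKO-labelled array 3, its lowest value with 1 array left out. With array weights 3 of the 22 passed as higher, against 1.27% of all genes. Without RKO-labelled array 1 there were 4 as higher, against 1.06%, and without WT array 1 there was 1, against 0.331%. With both arrays numbered 1 omitted 7 of the 22 passed as higher, against 2.28% of all genes.

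Of the 18 measured SREBP-1 fatty acid targets 12 were higher and 6 lower by mean, with a median of 0.08, while Srebf1 was lower by mean, and 0 passed. In this list 4 genes, all higher, had an unadjusted limma p under 0.05, against 3.82% of all genes. With 1 array left out, 1 to 6 were higher at that p. The median was 0.03 without WT array 1, 0.04 without RKO-labelled array 3 and 0.14 without WT array 3. With array weights 3 of the 18 passed as higher, against 1.27% of all genes. With both arrays numbered 1 omitted 4 passed as higher and 1 as lower, against 2.28% and 4.96%. Elovl5, a fatty acid elongase gene, read 13.42, 13.48, 13.58 and 13.44 on the RKO-labelled arrays, against 13.42, 12.97, 13.07 and 13.31 on the WT arrays. The groups did not overlap, although RKO-labelled array 1 and WT array 1 were equal to 2 decimals (0.29, SE 0.09; limma adjusted p = 0.272). Acacb, the mitochondrial acetyl-CoA carboxylase gene, differed by 0.45 (SE 0.19; limma adjusted p = 0.403) and was 0.28 without RKO-labelled array 3 and 0.67 with array weights (limma adjusted p = 0.0423). Scd1 differed by -0.42 (SE 0.31; limma adjusted p = 0.664), within a range from -0.72 without WT array 1 to -0.27 without WT array 3. It was -1.01 with both arrays numbered 1 omitted (limma adjusted p = 0.000115). Those arrays read against their groups for Scd1, so this p-value is no separate test. Of the 20 measured SREBP-2 targets 16 were higher and 4 lower by mean, with a median of 0.11, while Srebf2 was higher by mean too, and 0 passed. Among them 3 genes, all higher, had an unadjusted limma p under 0.05, against 3.82% of all genes. The median was 0.04 without RKO-labelled array 4 and 0.06 without WT array 4. With array weights 3 of the 20 passed as higher, against 1.27% of all genes, and with both arrays numbered 1 omitted also 3, against 2.28%. Hmgcs1, the cytosolic HMG-CoA synthase gene, read 10.54, 10.68, 11.01 and 11.27 on the RKO-labelled arrays, against 10.66, 10.04, 10.16 and 10.29 on the WT arrays (0.59, SE 0.17; limma adjusted p = 0.222). RKO-labelled arrays 2 to 4 were above every WT array, and RKO-labelled array 1 was below WT array 1. The sterol synthesis genes Hsd17b7 (0.29, SE 0.10; limma adjusted p = 0.287) and Dhcr7 (0.39, SE 0.13; limma adjusted p = 0.305) followed. The groups did not overlap for Hsd17b7, whereas they overlapped for Dhcr7. Several targets, such as Fasn, Acly, Me1, Elovl6 and Pnpla3, stand in both the SREBP-1 and the ChREBP list, so these lists are not independent.

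**Figure D4:**
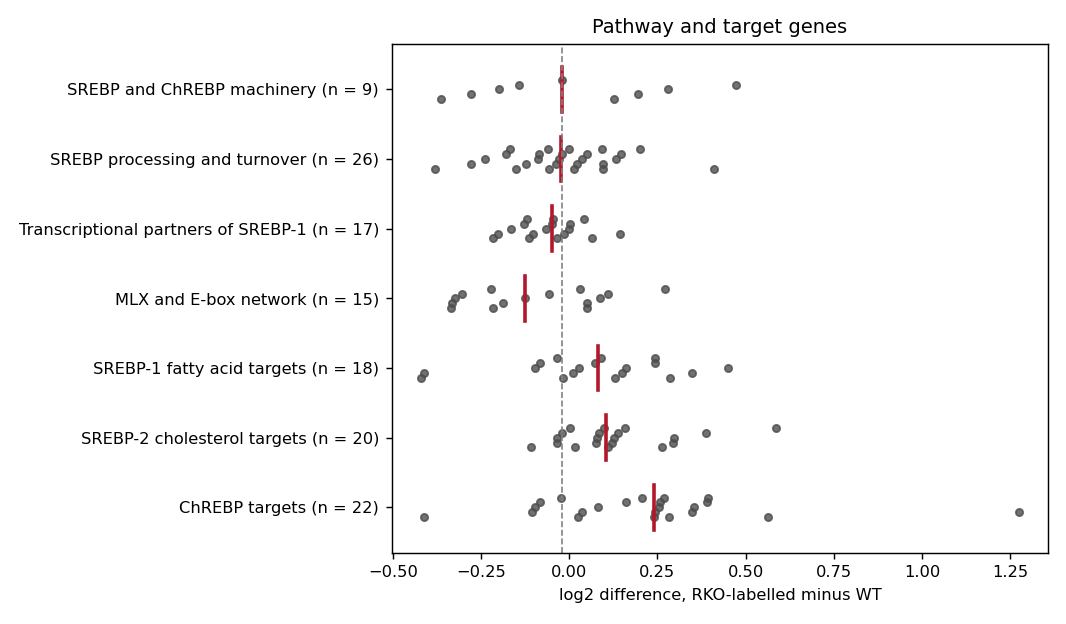
Log2 differences (horizontal axis, RKO-labelled minus WT) of every measured gene in 7 lists, 1 point per gene, with the list median as a red bar and the median of all genes (-0.02) as a dashed line. The medians are 0.24 for the ChREBP targets, 0.11 for the SREBP-2 targets, 0.08 for the SREBP-1 targets and -0.12 for the MLX and E-box network.

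Markers of other liver cells were set beside these differences. The 10 Kupffer cell and macrophage markers averaged between 9.25 and 10.14 on the RKO-labelled arrays and between 9.04 and 9.83 on the WT arrays, with 8 of 10 higher by mean. This count rested on single arrays. It was 4 of 10 without RKO-labelled array 4, and 5 of 10 without RKO-labelled array 1 or without WT array 4. All 8 lymphocyte markers were lower by mean, and their averages lay between 6.10 and 6.29 on the RKO-labelled arrays and between 6.19 and 6.52 on the WT arrays. These averages were below the array medians, and 11352 of all 19938 genes were lower by mean. The sinusoidal endothelial, stellate cell, cholangiocyte, adipocyte and erythroid lists had 5 of 10, 5 of 10, 3 of 6, 2 of 6 and 1 of 2 measured markers higher by mean. With all arrays at equal weights 0 markers passed in any list. With both arrays numbered 1 omitted, cholangiocyte markers passed as lower in 2 of 6 and erythroid markers in 1 of 2, against 4.96% of all genes. In that fit 1 of 6 adipocyte markers passed as higher, against 2.28%. This was Cidec, which read 9.13, 9.95, 11.35 and 9.91 on the RKO-labelled arrays, against 10.39, 8.05, 9.09 and 9.02 on the WT arrays. Its arrays numbered 1 were the lowest RKO-labelled and the highest WT reading, as for Igfbp1. Adipoq and Lep read below the array medians on all arrays. With array weights 1 cholangiocyte marker passed as lower, against 2.11%. Without RKO-labelled array 1 a cholangiocyte and an erythroid marker did, against 3.14%. The averages of the 2 groups overlapped in all of these lists, and their part in the differences was not tested.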

How the data were processed

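Liver RNA from 8 mice, 4 labelled RKO and 4 WT, was measured on 1 Affymetrix Mouse Gene 1.0 ST array each. Partek, RMA and Affymetrix Expression Console are listed in the submitters' processing notes, with no version, role or order. The authors deposited RMA values, treated here as log2 from their range and the method, as no source states the base. Because RMA equalises the arrays' distributions, it hides a shift common to most genes.

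Of 35556 probe sets, 23410 had 1 or more gene symbols, of which 21789 had 1 and 1621 several; 12146 had none. Symbols were updated by Entrez identifier against GRCm38.p6 RefSeq (21698 matched). A gene was counted once, by its brightest probe set. Limma 3.58.1 in R 4.3.3 (lmFit, eBayes with trend) was fitted to the 23410 probe sets with Benjamini-Hochberg adjustment and a threshold of 0.05. The same fit was run on simulated data with independent noise in each probe set. That simulation held no array apart from its group, so it does not test the fit for arrays such as those numbered 1. Permutation tests were exact. Brightness was not filtered, and the number of arrays limits the precision.

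The members, lists and alternatives were chosen with earlier results of these data known. Named genes were the 9 members, Rictor, insulin-state genes, for each list without a passing gene the 3 with the smallest p, and the 3 genes most like Srebf1, Insig1, Insig2 and Mlxipl. Rgs16 and Cidec were named as well, for the largest differences of their lists. Some genes of the lists were not analysed here, and counts are over the genes measured. Replicate numbers were not treated as pairs: deviations from group means correlated at 0.00356, -0.0948, -0.0625 and 0.211 between same-numbered arrays. Nothing in the labels says how the mice were housed or bred, so p-values measure the spread between these livers. Correlations between arrays lay from 0.987 to 0.994, and no 2 arrays were copies.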

Additional observations from a re-analysis of the deposited data

Results flagged for a closer look

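Within groups of 4, an array was taken as standing apart when its gap to the nearest other array was, as a share of the group's range, above Dixon's 95% critical value. This was met 8 times in the 62 groups of 31 genes, and chance gives about 1 in 20 for independent groups. These groups share the same arrays, and the genes were chosen with earlier results of these data known, so the 2 rates are not directly comparable. For Mlxipl the lowest WT reading was 11.25 on WT array 1, with the others between 11.68 and 11.77. For Mlx the highest RKO-labelled reading was 11.09 on array 1, with the others between 10.50 and 10.58. For Igfbp1 the highest WT reading was 10.04 on WT array 1, with the others between 7.29 and 7.40. Irs2, an insulin receptor substrate gene, was lowest in the RKO-labelled group at 8.24 on array 1 and highest in the WT group at 9.08 on array 1. For Scd1 the highest RKO-labelled reading was 14.02 on array 1. The remaining arrays were those of Nfya at 9.42 on RKO-labelled array 2 and Ep300 at 9.97 on RKO-labelled array 3, each the lowest of its group. The arrays numbered 1 account for 6 of the 8.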

How the results depend on the processing

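With all 8 arrays at equal weights 0 genes passed, also without a trend, without moderation, with other scalings, probe set choices or a filter on dim probe sets, and with the replicate block, under which the adjusted p was 0.339 for Mlx. With array weights 673 genes passed, and without both arrays numbered 1 1443. With single arrays left out the count lay between 0 and 838 (93 without WT array 1, 838 without RKO-labelled array 1). Of the 9 genes, 2 passed with array weights (Insig2 at 0.62, Mlx at -0.48), 3 without both arrays numbered 1 (Insig2 at 0.61, Mlxipl at -0.37, Mlx at -0.51), and 0 to 2 when 1 array was dropped. In those last fits Insig2 lay between 0.34 and 0.60, Mlxipl between -0.40 and -0.23, Mlx between -0.50 and -0.30 and Usf2 between -0.0447 and 0.0187. Usf2 (0.0187 without WT array 3) was the 1 member whose sign turned in the alternatives run, and Rictor, between -0.0302 and 0.145 in the same fits, turned to -0.0132 without WT array 3 and -0.0302 without RKO-labelled array 3. Relations past the adjusted threshold numbered 0 to 1 with single arrays left out. Usf1 fell under the filter on dim probe sets and has no value there. The causes were not tested.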
